A study of Mus musculus with 36 samples.

Results

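White adipose tissue of male C57Bl/6 mice heterozygous for Myc (Myc+/-) was compared between 24 and 5 months of age. The 2 age groups were chosen by the tissue, genotype and age in the labels. They comprised 6 of the 36 arrays of the series, 3 technical arrays of 1 RNA pool at 24 months and 3 of 1 pool at 5 months. The 24-month Myc+/- pool held equal amounts of RNA from 8 mice and the 5-month Myc+/- pool from 5 mice. Wild type adipose of the same strain and sex served for comparison, with 5 mice in the 24-month pool and 6 mice in the 5-month pool. The labels name neither the Myc allele nor any treatment, the same mice also gave liver and skeletal muscle, and the sources used here do not give the fat depot. Values were log2 expression values of probe sets on the Affymetrix Mouse Gene 1.0 ST array, and a difference of 1 on this scale is a 2-fold difference. Of 19938 genes with an unambiguous probe set, 11893 had a mean adipose level above the 40th percentile and were tested.

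White fat stores triglyceride in adipocytes and carries a stroma of progenitors, vessels, mesothelium and immune cells. In ageing mice, visceral fat is known to accumulate B cells, plasma cells, T cells and macrophages while adipocyte gene programmes decline. Myc encodes a transcription factor that promotes cell growth and ribosome production, and the title of the series links its reduced expression to a longer and healthier mouse life.

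Adipocyte markers lay far above the array medians in both pools. Adipoq, the adiponectin gene, had 13.62, 13.64 and 13.62 (log2) on the 24-month arrays and 13.79, 13.79 and 13.76 on the 5-month arrays. Plin1, which coats the lipid droplet, averaged 13.16 at 24 months and 13.41 at 5 months. Ucp1, the thermogenic protein of brown fat, did not pass the filter on dim probe sets. The 6 Myc+/- adipose arrays had medians of 7.05 to 7.12, each correlated with the other arrays of its pool at 0.9917 to 0.9928, and the median SD between arrays of a pool was 0.079 at 24 months and 0.08 at 5 months. No array stood apart.

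Myc itself had 9.44, 9.63 and 9.38 (log2) in 24-month Myc+/- adipose and 9.27, 9.54 and 9.34 in 5-month Myc+/- adipose. These arrays overlapped, and the difference of 0.10 ± 0.17 (SE of the limma fit) did not pass the test (adjusted p = 0.761). Against wild type adipose of the same age, the Myc+/- level of Myc was 57.1% at 24 months and 80.1% at 5 months. Pvt1, a noncoding RNA gene next to Myc, differed by 0.01 ± 0.14 between the ages in Myc+/- adipose.

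With 1 pool per age, the error of the test was borrowed: limma was fitted to all 12 pool means of the series, and a difference passed when it exceeded how far the age difference varied between the genotypes in liver and muscle. Each adipose pool was thus assumed to vary as those pools do. The calls carry no estimate of how replicate pools of such mice would differ. Genes whose age difference varied little between the genotypes in liver and muscle got a smaller SE and passed more easily. Genes that varied much there passed less easily. In these bulk samples, a change in the number of cells of a type and a change in RNA per cell cannot be told apart. At an adjusted p under 0.05, 373 genes rose at 24 months (3.14% of the genes tested) and 252 fell (2.12%). With each array centred on its median, the split was 356 higher and 364 lower, so the balance between rises and falls depends on the scaling.

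As a description of the 2 RNA mixtures, 144 genes were at least 2-fold higher at 24 months with all 3 arrays above the 5-month arrays (1.21%), and 37 were at least 2-fold lower (0.311%). Of these, 117 of the higher and 31 of the lower genes also passed the test. The last genes inside the 2-fold limit were Sfrp4, a secreted Wnt antagonist, at 1.00, and Ppp1r3c, a glycogen-targeting subunit, at -1.02. The first outside were Fcgr1, an antibody Fc receptor, at 0.99 and Arxes1, an adipocyte gene, at -0.998. Without a fold limit, all 24-month arrays lay above all 5-month arrays for 21.8% of the genes tested and below them for 26.4%.

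B cell and plasma cell genes rose together, and 14 of them were at least 2-fold higher. Of 29 such genes on the array, 21 passed the filter, 15 rose and 0 fell. Their median difference was 1.19 (1.09 with the dim members kept), against -0.03 over all genes tested, and the list's mean level was 8.67 to 8.72 on the 24-month arrays and 7.29 to 7.33 on the 5-month arrays. Immunoglobulin variable segments were higher with them: 7 of 8 segments were tested, 5 rose, and the 7 differences lay between 2.49 and 4.25 (median 3.31).

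Jchain, which joins the subunits of secreted IgM and IgA, had 12.09, 12.02 and 11.90 (log2) at 24 months and 8.68, 8.89 and 8.65 at 5 months. The pools were far apart, and the 9.58-fold rise had an adjusted p of 0.000269. Igha, the constant region of IgA, had 11.48, 11.61 and 11.39 at 24 months and 8.09, 8.22 and 7.97 at 5 months. It rose by 3.40 ± 0.58 (adjusted p = 0.0359), and its other probe set differed by 3.21. Ighm, the constant region of IgM, rose by 1.94 ± 0.21, with 2.29 and 1.08 on its other probe sets.

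Cxcl13, the chemokine that draws B cells into follicles, had 12.51, 12.40 and 12.53 at 24 months and 9.00, 9.23 and 9.26 at 5 months, a 9.97-fold rise (adjusted p = 0.0118). Cd79a, a signalling chain of the B cell receptor, had 8.70, 8.87 and 9.19 at 24 months and 6.29, 6.14 and 5.71 at 5 months and rose 7.33-fold. All of these 24-month arrays lay above all 5-month arrays. Its partner chain Cd79b rose by 2.09 ± 0.10, and Ms4a1, which encodes the B cell surface protein CD20, by 2.31 ± 0.12. Ly6d, a surface protein that marks B cell progenitors and also squamous epithelium, rose by 3.02 ± 0.33. Pou2af1, a B cell transcriptional coactivator, rose by 1.62 ± 0.11, Mzb1, which assists antibody folding in plasma cells, by 1.53 ± 0.15, and Tnfrsf17, a plasma cell survival receptor, by 1.07 ± 0.16. Pax5, the B lineage transcription factor, rose by 0.79 ± 0.11.

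**Figure D1:**
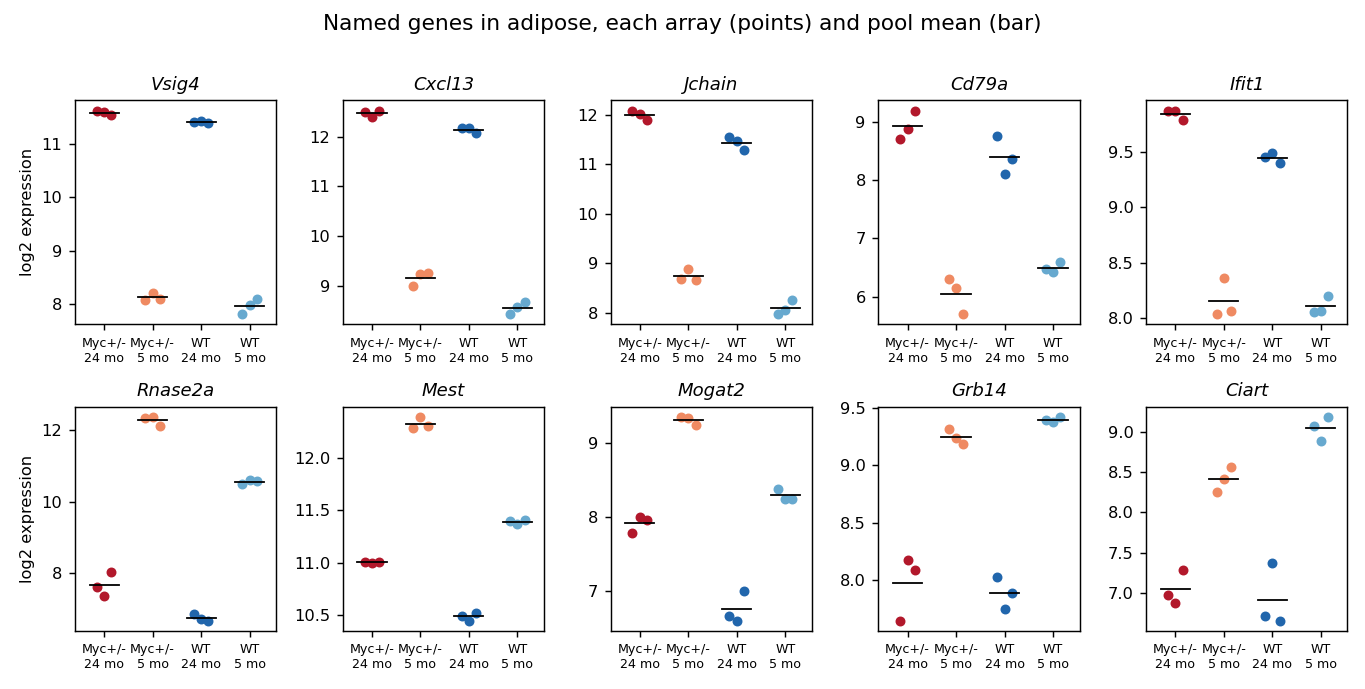
Log2 expression (y axis, own scale per panel) of 10 genes on each adipose array, with points for arrays and a bar for the pool mean, for Myc+/- at 24 and 5 months and wild type at 24 and 5 months. The 24-month Myc+/- arrays of Vsig4, Cxcl13, Jchain, Cd79a and Ifit1 lie above all 5-month Myc+/- arrays, and those of Rnase2a, Mest, Mogat2, Grb14 and Ciart below them.

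Interferon response genes formed the list with the most genes past the test. Interferons are antiviral cytokines that bind surface receptors, and their signal reaches target promoters through the interferon-stimulated response element (ISRE). Of 31 list members on the array, 28 passed the filter, 19 rose and 0 fell, with a median difference of 0.74 (0.71 with the dim members kept). The mean level of the list was 9.30 to 9.37 on the 24-month arrays and 8.55 to 8.64 on the 5-month arrays.

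Among sensors and effectors, Ifit1, which binds viral RNA, had 9.88, 9.88 and 9.79 (log2) at 24 months and 8.04, 8.36 and 8.06 at 5 months. It rose 3.24-fold (adjusted p = 0.00142), and the pools did not overlap. Iigp1, a GTPase that attacks pathogen vacuoles, rose by 1.52 ± 0.10, Zbp1, a sensor of Z-form nucleic acid, by 1.25 ± 0.16, and Ddx60, an antiviral helicase, by 1.06 ± 0.12. Oasl2 and Oas2, of the oligoadenylate synthetase family, rose by 1.17 ± 0.14 and 1.13 ± 0.16. Rsad2, which encodes the antiviral enzyme viperin, had 8.41, 8.51 and 8.28 at 24 months and 7.22, 7.48 and 7.48 at 5 months and rose by 1.01 ± 0.14.

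Among regulators, Irf7, the transcription factor that amplifies interferon production, had 9.12, 9.32 and 9.37 at 24 months and 7.97, 8.18 and 8.07 at 5 months (adjusted p = 0.0382). Usp18, which removes the ubiquitin-like protein ISG15 and dampens receptor signalling, rose by 1.19 ± 0.11, and Irf9, a transcription factor of the interferon regulatory family, by 0.66 ± 0.09. Cxcl10, an interferon-induced T cell chemokine, differed by 0.38 ± 0.38 and did not pass (adjusted p = 0.589). Cxcl9, its close relative, and Ifi27l2a were the 2 members that were lower at 24 months, and neither passed.

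Promoters of 4 of these genes are printed to show the ISRE core in the 250 bases before and 50 bases after the annotated start (RefSeq, build GRCm38.p6). Capitals mark the core (GAAA, any 2 bases, GAAA) on either strand.
Ifit1 promoter, chr19:34640639-34640938, plus strand: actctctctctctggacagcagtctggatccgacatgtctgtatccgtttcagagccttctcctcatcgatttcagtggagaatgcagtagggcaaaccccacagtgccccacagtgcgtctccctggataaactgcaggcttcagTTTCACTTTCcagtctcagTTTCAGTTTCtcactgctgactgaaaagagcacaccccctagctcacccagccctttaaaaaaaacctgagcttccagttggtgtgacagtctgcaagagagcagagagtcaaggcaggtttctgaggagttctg
Ifit3 promoter, chr19:34583279-34583578, plus strand: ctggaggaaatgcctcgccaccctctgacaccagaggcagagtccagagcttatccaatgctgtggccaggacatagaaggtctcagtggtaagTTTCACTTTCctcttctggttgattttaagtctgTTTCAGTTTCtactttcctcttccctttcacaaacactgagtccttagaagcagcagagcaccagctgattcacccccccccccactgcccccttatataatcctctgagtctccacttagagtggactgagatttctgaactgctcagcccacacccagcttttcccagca
Ddx60 promoter, chr8:61927837-61928136, plus strand: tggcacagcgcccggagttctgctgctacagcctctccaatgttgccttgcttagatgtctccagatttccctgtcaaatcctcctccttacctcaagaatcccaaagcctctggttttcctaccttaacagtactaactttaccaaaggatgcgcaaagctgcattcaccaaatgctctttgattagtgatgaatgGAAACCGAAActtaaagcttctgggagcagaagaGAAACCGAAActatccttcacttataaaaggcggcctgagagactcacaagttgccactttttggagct
Rsad2 promoter, chr12:26456403-26456702, minus strand: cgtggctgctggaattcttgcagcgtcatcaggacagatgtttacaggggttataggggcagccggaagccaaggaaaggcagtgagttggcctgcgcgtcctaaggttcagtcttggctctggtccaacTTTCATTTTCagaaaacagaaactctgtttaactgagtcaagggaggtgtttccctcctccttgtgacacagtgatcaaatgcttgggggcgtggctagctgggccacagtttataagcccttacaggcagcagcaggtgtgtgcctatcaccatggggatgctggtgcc

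In Ifit1 the cores end 95 and 76 bases before the start, in Ifit3 147 and 113, in Ddx60 44 and 10, and in Rsad2 a single core ends 111 bases before it. Of the 28 tested list members, 21 had a promoter in the table, and 12 of the 21 held the core. The same letters occur in 3.44% of all 32851 promoters of this length and in 3.99% of genes. Of the 13 list members that rose and had a promoter, 7 held it. These matches describe the letters and were not tested as binding sites.

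**Figure D2:**
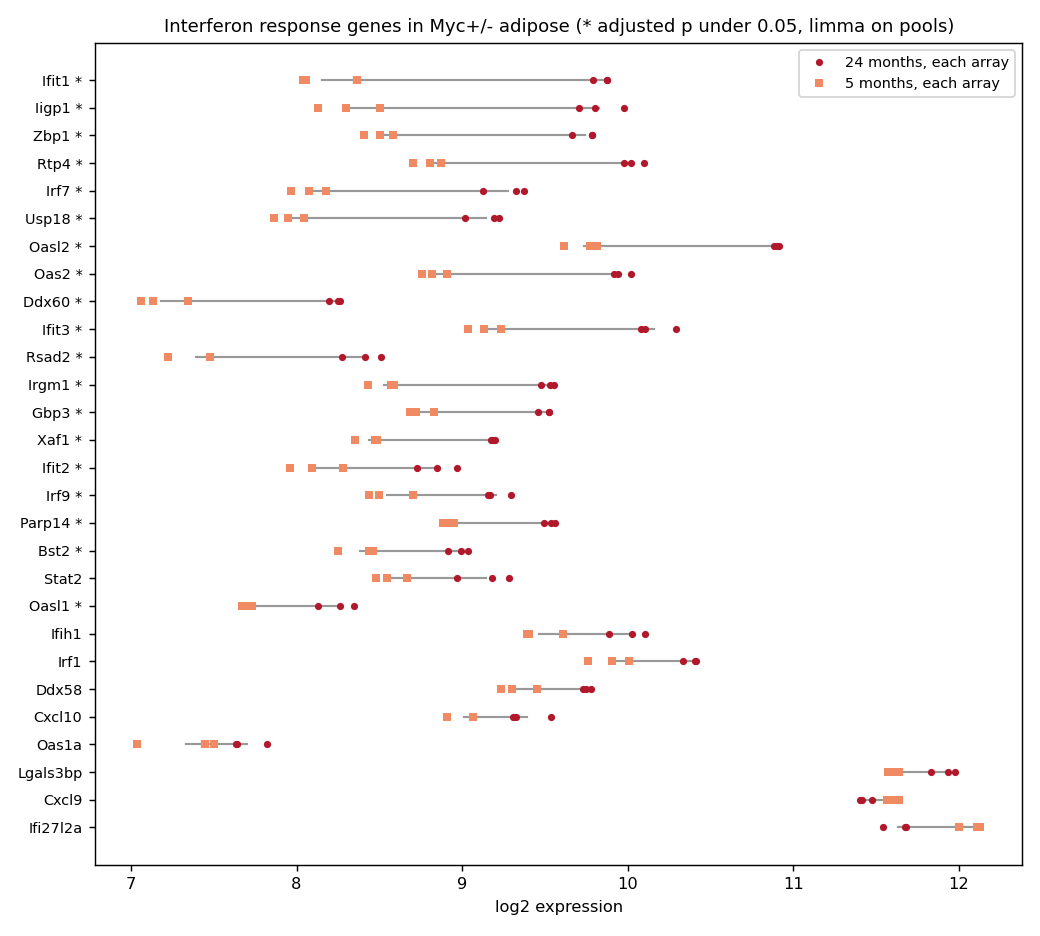
Log2 expression (x axis) of the 28 tested interferon response genes in Myc+/- adipose, with circles for the 24-month arrays and squares for the 5-month arrays, ordered by the difference of the pool means. Ifit1 leads with a difference of 1.70, asterisks mark the 19 genes past the test, and Cxcl9 and Ifi27l2a lie on the opposite side.

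Macrophage genes split by type. Of 16 resident macrophage genes, 15 were higher at 24 months, 13 passed the filter, 5 rose and 7 were at least 2-fold higher (median 1.07, or 1.00 with the dim members kept). Vsig4, a complement receptor of tissue-resident macrophages, had 11.63, 11.60 and 11.55 (log2) at 24 months and 8.07, 8.21 and 8.10 at 5 months, an 11.07-fold rise (adjusted p = 0.00719). Timd4, a receptor for phosphatidylserine on dying cells, had 9.27, 9.24 and 9.40 at 24 months and 7.54, 7.64 and 7.74 at 5 months and rose 3.17-fold (adjusted p = 0.00621). The arrays of the pools were well separated for both genes. The lectin genes Cd209f and Cd209d rose by 1.52 ± 0.17 and 1.22 ± 0.15. Clec10a, another lectin, had 10.64, 10.69 and 10.62 at 24 months and 9.03, 9.34 and 9.16 at 5 months, without overlap, and did not pass (adjusted p = 0.0907). Lyve1, a hyaluronan receptor of resident macrophages and lymphatic endothelium, differed by 1.11 ± 0.41 and did not pass either.

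Of 25 general macrophage genes, 24 passed the filter, 4 rose and 0 fell (median 0.70). Csf1r, the receptor for the macrophage growth factor, had 11.82, 11.87 and 11.99 at 24 months and 10.98, 11.08 and 11.07 at 5 months, a 1.81-fold rise (adjusted p = 0.025). Msr1, a scavenger receptor, rose by 1.11 ± 0.11 and C1qa, a chain of complement C1q, by 1.10 ± 0.16. Adgre1, which encodes the F4/80 antigen, and Cd68 differed by 0.70 ± 0.17 and 0.91 ± 0.27, with no overlap of arrays and adjusted p of 0.0721 and 0.11. In the wild type pools, 21 of the same 24 genes rose.

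Lipid-associated macrophage genes mark the macrophages that surround dying adipocytes and take up their lipid. They had a median difference of only 0.09 over 19 tested members of 20, with 1 rise and 1 fall. Over all genes tested, 3.14% rose and 2.12% fell. Gpnmb, a lysosomal glycoprotein of these cells, had 11.07, 11.17 and 11.14 at 24 months and 10.42, 10.42 and 10.48 at 5 months and rose 1.61-fold (adjusted p = 0.0342). Itgax, which encodes CD11c, had 8.00, 7.82 and 7.71 at 24 months and 8.51, 8.52 and 8.37 at 5 months and fell 1.54-fold (adjusted p = 0.0414), though without the third 24-month array the difference of -0.55 did not pass. Mmp12, the macrophage elastase, differed by -0.81 ± 0.23 and did not pass (adjusted p = 0.098). Of the 19 tested members, 11 were higher at 24 months and 8 lower. Trem2 differed by 0.62, Atp6v0d2 by 1.00 and Fabp5 by -0.86, and none of these passed. Cd36, at -0.17, also belongs to the adipocyte identity list. The mean level of the list was 10.68 to 10.70 on the 24-month arrays and 10.61 to 10.65 on the 5-month arrays.

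T and NK cell genes were mostly higher: of 34 members 31 were higher, 20 passed the filter and 7 rose (median 0.70, or 0.46 with the dim members kept). Cd3g, a chain of the T cell receptor complex, had 8.27, 8.46 and 8.57 (log2) at 24 months and 6.37, 6.86 and 6.83 at 5 months and rose 3.35-fold (adjusted p = 0.00621). The chemokine receptor genes Cxcr6 and Cxcr3 rose by 1.40 ± 0.15 and 1.04 ± 0.15. Cd8b1 and Cd8a, the chains of the CD8 coreceptor, rose by 1.02 ± 0.13 and 0.85 ± 0.16, whereas Cd4 differed by 0.45 ± 0.21 and Foxp3, which marks regulatory T cells, by 0.01 ± 0.12, and neither passed.

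Of 14 mast cell genes, 6 passed the filter and 4 rose (median 0.96, or 0.52 with the dim members kept). Cpa3, a granule carboxypeptidase, had 10.61, 10.44 and 10.30 at 24 months and 8.48, 8.58 and 8.62 at 5 months and rose 3.71-fold (adjusted p = 0.00142). The granule proteases Mcpt4 and Tpsb2 rose by 1.77 ± 0.19 and 1.25 ± 0.11, and Hdc, which makes histamine, by 0.67 ± 0.12, though Hdc did not pass with the median of the arrays (0.64). Kit, the stem cell factor receptor, overlapped between the pools at 0.06 ± 0.13.

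Class I antigen presentation genes rose in 5 of 12 cases, among them the immunoproteasome subunit Psmb8 by 0.91 ± 0.13 and the peptide transporter Tap1 by 0.79 ± 0.11. Complement genes rose in 3 of 18 tested cases, counting Vsig4 and C1qa and also C1ra, a protease of the C1 complex, at 1.07 ± 0.11. Of 24 tested cytokine and chemokine genes, 4 rose: Cxcl13, Ltb (lymphotoxin beta, which organises lymphoid tissue) at 1.09 ± 0.12, and the chemokines Ccl6 at 1.04 ± 0.19 and Cxcl16 at 0.86 ± 0.16. Ccl8, a monocyte chemokine, had 12.72, 12.66 and 12.63 at 24 months and 10.40, 10.51 and 10.20 at 5 months. This 4.93-fold difference did not pass (adjusted p = 0.114), with an SE of 0.70 on the log2 scale.

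**Figure D3:**
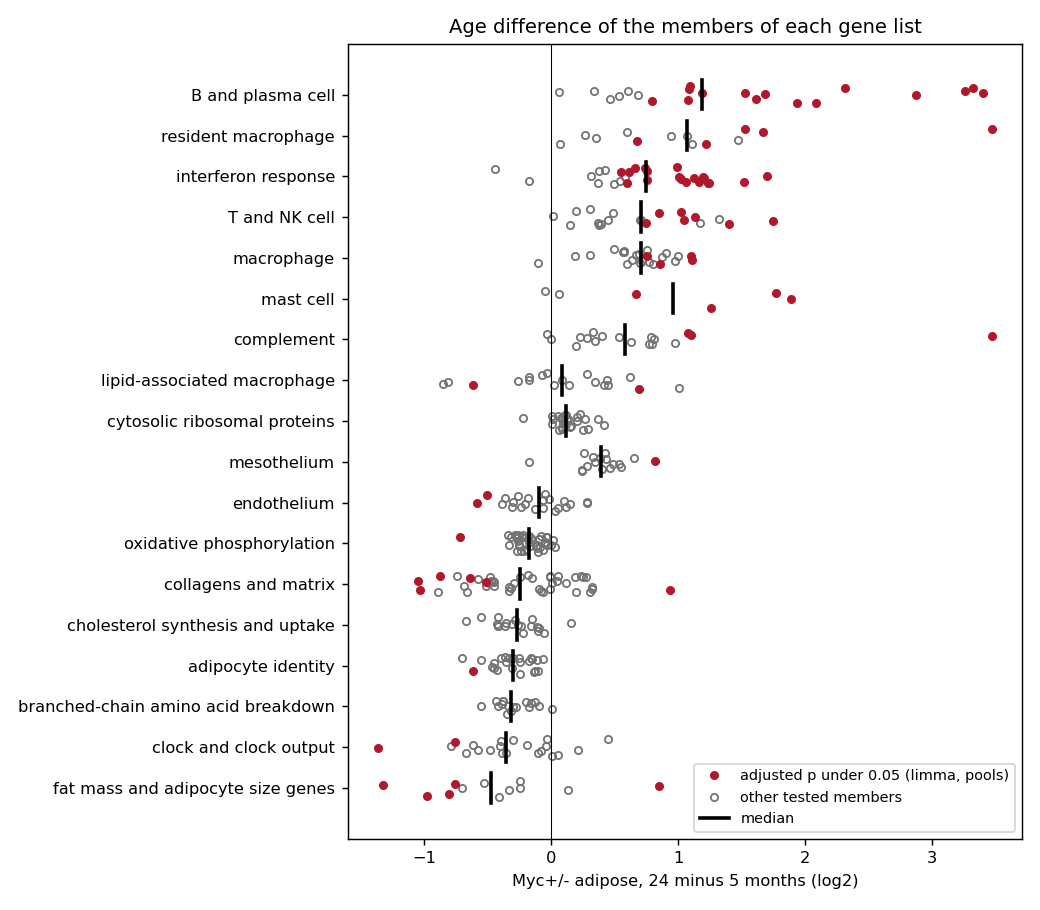
Difference between 24 and 5 months in Myc+/- adipose (x axis, log2) for each tested member of 18 gene lists, with filled points for genes past the test, open points for the rest and a bar at the median. B and plasma cell genes have a median of 1.19 and adipocyte identity genes of -0.30.

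Adipocyte genes were slightly lower as a group. All 24 adipocyte identity genes had lower values at 24 months, between -0.71 and -0.06 with a median of -0.30, yet only 1 fell; over all genes tested, 45.2% were higher. Gpd1, which makes the glycerol backbone of triglyceride, had 11.30, 11.31 and 11.35 (log2) at 24 months and 12.04, 11.92 and 11.84 at 5 months and fell 1.53-fold (adjusted p = 0.0352). Lep, the leptin gene, had 12.82, 12.79 and 12.77 at 24 months and 13.46, 13.55 and 13.49 at 5 months. Its arrays did not overlap, but the 1.63-fold lower level did not pass (adjusted p = 0.116).

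Genes whose adipose expression is known to follow fat mass and fat cell size gave clearer calls, with 4 falls and 1 rise among 12 tested of 13. Mest, an imprinted gene induced in expanding fat, had 11.01, 11.00 and 11.01 at 24 months and 12.29, 12.39 and 12.31 at 5 months and fell 2.51-fold (adjusted p = 0.0248). The 24-month arrays were nearly equal and far below the 5-month arrays. Sfrp5, a secreted Wnt antagonist, fell by 0.98 ± 0.13, Npr3, the clearance receptor for natriuretic peptides, by 0.81 ± 0.16, and Trim67, a ubiquitin ligase of the TRIM family, by 0.76 ± 0.11. Peg3, another imprinted gene, rose by 0.85 ± 0.15. Npr3 and Peg3 did not pass with the median of the arrays in place of the mean (-0.81 and 0.78).

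In lipid metabolism, Mogat2, which esterifies monoacylglycerol, had 7.78, 8.00 and 7.96 at 24 months and 9.34, 9.33 and 9.24 at 5 months and fell 2.62-fold (adjusted p = 0.0161). Fads2, a fatty acid desaturase, rose by 0.64 ± 0.10, and these were the 2 genes that passed among 25 tested genes of fatty acid and triglyceride synthesis. Fasn, the fatty acid synthase gene, differed by 0.09 ± 0.27. Angptl8, an insulin-induced regulator of lipoprotein lipase, fell by 0.96 ± 0.18, a call it lost with the median of the arrays. G0s2, an inhibitor of the lipase ATGL, fell by 0.62 ± 0.09. Pdk4, which restrains pyruvate oxidation, had 12.18, 12.11 and 12.22 at 24 months and 10.80, 10.97 and 10.92 at 5 months and rose 2.42-fold (adjusted p = 0.0305).

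Mitochondrial lists leaned to lower values, with calls about as rare as over all genes tested, of which 2.12% fell. Of 40 oxidative phosphorylation genes, 38 were lower and only Ndufb3, a subunit of complex I, passed, falling by 0.72 ± 0.12 (list median -0.18). Of 17 genes of branched-chain amino acid breakdown, 16 were lower (median -0.32), and 17 of 18 genes of the tricarboxylic acid cycle were lower (median -0.26). In limma 0 genes of either list passed, with 12 and 11 at an unadjusted p under 0.05. In the wild type pools 9 and 5 of them fell. Cholesterol synthesis genes were lower in 19 of 20 cases (median -0.27), with 0 past the limma test and 5 at an unadjusted p under 0.05.

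In insulin signalling, Grb14, an adaptor that inhibits the insulin receptor, had 7.65, 8.18 and 8.09 at 24 months and 9.32, 9.24 and 9.19 at 5 months and fell 2.42-fold (adjusted p = 0.00621). Igfbp5, an IGF-binding protein, fell by 0.60 ± 0.08 and Igf1r, the IGF1 receptor, rose by 0.55 ± 0.10, though Igf1r did not pass with the median of the arrays (0.50). Igf1 and Irs1 differed by -0.05 ± 0.17 and 0.26 ± 0.11, and neither passed.

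Matrix genes fell in 5 and rose in 1 of 43 cases (median -0.25). Col6a2 and Col6a1, chains of the pericellular collagen VI of fat cells, had pool means of 9.63 and 9.62 (log2) at 24 months and 10.67 and 10.49 at 5 months and fell by 1.04 ± 0.16 and 0.88 ± 0.09. Col6a2 did not pass with the median of the arrays (-1.02). The third chain, Col6a3, differed by -0.75 ± 0.15 (adjusted p = 0.0524). The basement membrane genes Col15a1, Hspg2 (perlecan) and Col18a1 fell by 1.05 ± 0.14, 0.64 ± 0.10 and 0.51 ± 0.09. Thbs2, a matricellular thrombospondin, rose by 0.93 ± 0.11.

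Among proteases of the matrix, Mmp11, Mmp9 and Mmp14 rose by 1.45 ± 0.10, 1.34 ± 0.14 and 0.85 ± 0.14. Adamts1 and Adamts5, which cleave proteoglycans, fell by 0.63 ± 0.10 and 0.52 ± 0.09. Pdgfra, the receptor that marks fibroblasts and adipocyte progenitors, had 10.87, 10.73 and 10.76 at 24 months and 9.80, 9.87 and 9.93 at 5 months and rose 1.89-fold (adjusted p = 0.0129). Of the 23 tested genes of this cell type, it and Dpp4, which marks early progenitors, rose, and Zfp423, a preadipocyte transcription factor, fell by 0.53 ± 0.11, a call it lost without the first or second 24-month array or the first 5-month array (-0.51, -0.49 and -0.48).

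Clock genes were lower in 17 of 21 cases (median -0.36), and 2 fell. Ciart, a repressor within the circadian clock, had 6.97, 6.88 and 7.29 (log2) at 24 months and 8.25, 8.42 and 8.57 at 5 months and fell 2.57-fold (adjusted p = 0.0202). Its other, dimmer probe set differed by -0.97. Bhlhe40, also a clock repressor, fell by 0.76 ± 0.10. Dbp, a clock output factor, differed by -0.79 ± 0.38, and Arntl, which encodes the activator BMAL1 and peaks in antiphase to these genes, by 0.44 ± 0.14, and neither passed. The sources used here do not give the time of day at tissue collection.

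The Ciart promoter is printed because BMAL1 and CLOCK bind the E-box; capitals mark CACGTG (RefSeq, GRCm38.p6).
Ciart promoter, chr3:95882179-95882478, minus strand: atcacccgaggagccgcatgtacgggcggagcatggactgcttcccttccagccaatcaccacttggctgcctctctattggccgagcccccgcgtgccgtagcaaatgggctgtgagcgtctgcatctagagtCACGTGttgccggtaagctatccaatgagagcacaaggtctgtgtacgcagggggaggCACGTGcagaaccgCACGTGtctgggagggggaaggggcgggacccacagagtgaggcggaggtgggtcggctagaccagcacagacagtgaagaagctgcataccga

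The 3 matches end 111, 53 and 39 bases before the annotated start. The E-box letters occur in 7.15% of all promoters of this length and in 8.09% of genes. They occur in 6 of the 18 clock list members with a promoter in the table.

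Growth-related lists held few calls, where 3.14% of all genes tested rose and 2.12% fell. Of 26 cytosolic ribosomal protein genes, 25 were higher at 24 months, with a median of 0.11. In limma 0 passed the test, and 7 had an unadjusted p under 0.05. Of 36 tested genes of ribosome biogenesis and other Myc targets, 25 were lower (median -0.10) and Hk2, a hexokinase, fell by 0.64 ± 0.08. Of 18 tested proliferation genes, 0 passed the limma test and 2 had an unadjusted p under 0.05 (median -0.05). Of 19 tested senescence and p53 target genes, 14 were lower (median -0.17), 1 rose and 3 fell. Sesn1, a stress-induced inhibitor of mTORC1, was the rise, at 0.45 ± 0.08. The falls were Igfbp5, the cell cycle inhibitor Cdkn2b at -0.63 ± 0.12 and the p53 target Phlda3 at -0.53 ± 0.10. Phlda3 did not pass without the first 24-month array (-0.51) or the third 5-month array (-0.52), and Cdkn2b did not pass without the second 24-month array (-0.55) or with the median of the arrays (-0.63). Cdkn2a, which encodes p16, did not pass the filter.

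Several of the genes with the largest differences belong to none of these programmes. Kcnma1, a calcium-activated potassium channel, had 9.84, 10.02 and 9.88 at 24 months and 5.34, 4.99 and 5.48 at 5 months, a 25.0-fold rise (adjusted p = 0.0182). Its other, dimmer probe set differed by -0.22, so the probe sets of Kcnma1 disagree. Rnase2a, a ribonuclease of the eosinophil-associated family, had 7.61, 7.37 and 8.02 at 24 months and 12.35, 12.35 and 12.10 at 5 months. It fell 24.2-fold (adjusted p = 0.000206), the largest fall among the 11893 genes tested. Ptgs2, which encodes the prostaglandin synthase COX-2, had 10.24, 10.39 and 10.12 at 24 months and 7.95, 8.28 and 8.23 at 5 months and rose 4.27-fold (adjusted p = 0.00719). Adm, a vasodilator peptide, rose by 1.55 ± 0.13.

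The remaining large falls came from genes of mixed function. Slc5a7, the choline transporter of cholinergic nerves, fell by 1.63 ± 0.13, Serpina3b, a protease inhibitor, by 1.68 ± 0.25, and Syt12, a synaptotagmin, by 1.54 ± 0.28. Paqr9, a progestin receptor family member, fell by 1.48 ± 0.15, and Hspb7, a small heat shock protein, by 1.38 ± 0.22. Pla2g2e, a secreted phospholipase, fell by 1.36 ± 0.12 and Lipf, which encodes gastric lipase, by 1.36 ± 0.13. Epp13, named for an epididymal protein, and Prr32 fell by 1.47 ± 0.14 and 1.36 ± 0.13.

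Markers of other tissues were present in the Myc+/- adipose pools, and some differed by age. Of 40 sperm and testis genes, 37 were higher at 24 months, with a median difference of 0.77. The filter kept 9 of them, and since it acts on the mean adipose level it favoured genes high in the 24-month pool; 5 of the 9 rose. Prm1, a protamine that packs sperm DNA, had 11.71, 11.55 and 11.62 (log2) at 24 months and 7.06, 7.01 and 7.12 at 5 months and rose 23.7-fold (adjusted p = 0.000206). Smcp, of the sperm mitochondrial capsule, had 9.71, 9.78 and 9.76 at 24 months and 5.34, 5.35 and 5.39 at 5 months and rose 20.9-fold. Prm2, the second protamine, rose by 3.52 ± 0.11, Meig1, needed for sperm formation, by 3.13 ± 0.30, and Gsg1, a germ cell gene, by 1.80 ± 0.11. The mean level of the whole list of 40 was 7.01 to 7.10 at 24 months and 5.92 to 6.04 at 5 months. The defining markers Tnp1, Tnp2 and Odf1 did not pass the filter and differed by 1.11, 2.46 and 1.79.

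Of 54 epididymis genes, 6 passed the filter; Wfdc10, which encodes a secreted WAP-domain protein, rose by 1.93 ± 0.12 and Mmp7, a metalloproteinase of epithelia, fell by 1.74 ± 0.16. The mean level of that list was 5.94 to 6.05 at 24 months and 5.62 to 5.69 at 5 months. Over all 54 epididymis genes, 27 were higher at 24 months, with a median difference of 0.0. Members that did not pass the filter included Spink8 at 4.71, Wfdc15b at 2.68 and Defb39 at 2.04, and Lcn5 at -1.17. Of 15 kidney genes, 7 passed the filter and 2 rose: Kap, an androgen-regulated kidney gene, by 2.00 ± 0.14 and Slc34a1, a phosphate transporter of the proximal tubule, by 1.89 ± 0.13. The kidney list had mean levels of 7.46 to 7.56 at 24 months and 7.03 to 7.06 at 5 months. Over its 15 members, 10 were higher at 24 months, with a median difference of 0.22. Miox, which did not pass the filter, differed by 1.92, whereas Umod, Aqp2 and Slc12a1 differed by 0.04, -0.03 and -0.13. Hepatocyte genes had mean levels of 8.31 to 8.40 at 24 months and 8.38 to 8.46 at 5 months. Of 19 tested members 0 passed the limma test and 0 had an unadjusted p under 0.05. The error of this test came partly from liver, the tissue of these genes, and Fgb differed by -0.39 ± 0.80. In wild type adipose the list median was 1.01 and 0 members rose, so 0 calls do not show that levels were equal. Alb, the albumin gene, had 11.78, 11.70 and 11.66 at 24 months and 11.46, 11.48 and 11.48 at 5 months. Mesothelium genes were higher in 17 of 18 cases (median 0.39), and Wt1, a mesothelial transcription factor, rose by 0.81 ± 0.12. The part of such tissue in the other age differences of Myc+/- adipose was not tested.

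Most age calls of Myc+/- adipose had the same sign in wild type adipose. Of the 373 genes that rose in Myc+/-, 364 were also higher in 24-month wild type adipose (97.6%) and 282 passed the test there. Of the 252 that fell, 242 were also lower in wild type (96.0%) and 196 passed. Over all genes tested the signs matched in 77.1%, and the age differences correlated at a Pearson r of 0.775 and a Spearman rho of 0.738 across genes, which are not independent replicates. The pools of the 2 genotypes are different mice, but both tests share the error taken from liver and muscle. In wild type adipose, 800 genes rose (6.73%) and 726 fell (6.1%), and 277 were at least 2-fold higher (2.33%) and 68 at least 2-fold lower (0.572%) with arrays apart.

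**Figure D4:**
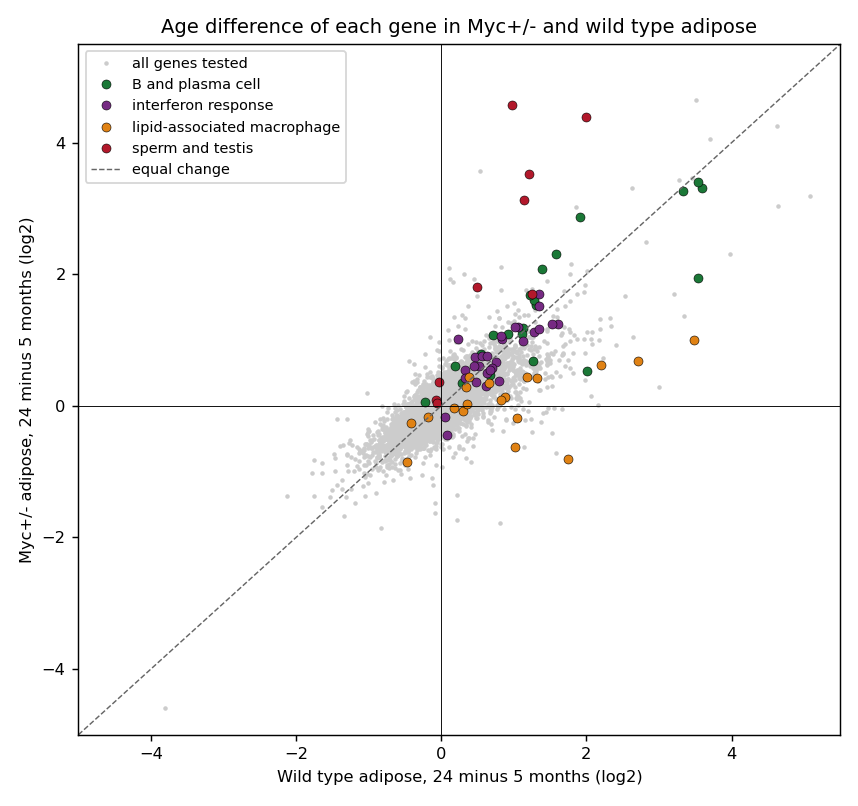
Difference between 24 and 5 months (log2) in Myc+/- adipose (y axis) against wild type adipose (x axis) for the 11893 genes tested, with 4 lists in colour and the dashed line of equal change. B and plasma cell and interferon genes lie around the line, lipid-associated macrophage genes mostly below it, and sperm and testis genes above it.

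The difference between the genotypes in age change was tested in the same fit. Changes were compared with their sign: a larger or higher change in Myc+/- is more positive, or less negative, than in wild type. A smaller or lower change is the reverse. It passed for 4 genes with a larger change in Myc+/- (0.0336% of the genes tested) and 4 with a smaller one (0.0336%), while 644 genes had an unadjusted p under 0.05. These calls depended on the tissue that gave the error: with muscle alone 0 and 0 genes passed (limma, 849 at an unadjusted p under 0.05), and with liver alone 20 and 66. The 4 with the larger change in Myc+/- were Prm1 (3.60 ± 0.19 above the wild type change), Pcp4 (3.03 ± 0.16), Smcp (2.39 ± 0.18) and Prm2 (2.31 ± 0.15). The filter acts on the mean adipose level and so favours genes high in the 24-month Myc+/- pool, as Prm1, Smcp and Pcp4 were. The SE of these genes came from liver and muscle alone, so it does not measure how adipose pools vary in them. Pcp4, a small calmodulin-binding protein, had 10.18, 10.14 and 10.24 in 24-month Myc+/- adipose and 6.62, 6.71 and 6.52 in 5-month Myc+/- adipose. In wild type adipose it averaged 7.32 at 24 months and 6.78 at 5 months.

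Of the genes with the smaller change in Myc+/-, Gpnmb, the lipid-associated macrophage gene, changed by 0.69 in Myc+/- and 2.70 in wild type adipose (difference -2.02 ± 0.16, adjusted p = 0.0289). Its 4 pool means were 11.13 in 24-month Myc+/-, 10.44 in 5-month Myc+/-, 11.79 in 24-month wild type and 9.08 in 5-month wild type. The Myc+/- pools thus lay between the wild type pools. Rgs1, which dampens chemokine receptor signalling in lymphocytes, had 7.54, 7.72 and 7.22 in 24-month Myc+/- and 7.12, 7.43 and 7.09 in 5-month Myc+/-, with overlap, against means of 9.07 and 6.07 in 24-month and 5-month wild type adipose (difference in change -2.72 ± 0.19). Rnf128, a ubiquitin ligase of T cell anergy, and the predicted gene Gm5150 differed in change by -1.62 ± 0.13 and -2.15 ± 0.15.

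Macrophage lists leaned the same way without further calls. Over all 11893 genes tested, 6244 had the higher signed change in Myc+/-, and the members of a list are not independent replicates. Of the tested lipid-associated macrophage genes, 16 of 19 had a lower signed change in Myc+/-. Their median difference in change was -0.73, against 0.01 over all genes. Of the general macrophage genes, 23 of 24 had a lower signed change (median -0.43). In both lists the Myc+/- pools lay between the wild type pools. At 24 months the lipid-associated list averaged 11.08 to 11.10 in wild type and 10.68 to 10.70 in Myc+/-. At 5 months it averaged 10.18 to 10.24 in wild type and 10.61 to 10.65 in Myc+/-. The general list averaged 10.95 to 10.97 and 10.82 to 10.86 at 24 months, in the same order. At 5 months it averaged 9.85 to 9.86 and 10.13 to 10.17. Itgax and Mmp12 had opposite signs in the genotypes, at -0.62 and -0.81 in Myc+/- and 1.02 and 1.74 in wild type. The difference in change was -1.64 ± 0.16 for Itgax (adjusted p = 0.0695) and -2.56 ± 0.32 for Mmp12 (adjusted p = 0.113). Timp1, an inhibitor of metalloproteinases, had 8.33, 8.54 and 8.28 in 24-month Myc+/- and 9.02, 9.19 and 9.06 in 5-month Myc+/-, against means of 9.38 and 7.80 in 24-month and 5-month wild type adipose (difference in change -2.29 ± 0.22, adjusted p = 0.0614). Proliferation genes had a lower signed change in Myc+/- in 18 of 18 tested cases (median -0.29). The list medians were -0.05 in Myc+/- and 0.26 in wild type. For Ccnd1 the decrease was larger in Myc+/-, at -0.44 against -0.20 in wild type. Of the 18 genes, 0 passed the limma test of the difference in change and 3 had an unadjusted p under 0.05.

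Resident macrophage genes leaned the other way, and B and plasma cell genes were divided. Timd4 differed by 1.66 in Myc+/- and 0.50 in wild type (difference 1.17 ± 0.18, adjusted p = 0.234), and 10 of 13 resident macrophage genes had the higher signed change in Myc+/-. Of 21 tested B and plasma cell genes, 13 had the larger change in Myc+/- and 8 the smaller. Their median change was 1.19 in Myc+/- and 1.26 in wild type. Cd79a, Cd79b and Ms4a1 had larger changes in Myc+/- by 0.96 ± 0.23, 0.70 ± 0.14 and 0.73 ± 0.17, whereas the change of Ighm was smaller by 1.61 ± 0.30, and none of these passed. Ptgs2 differed by 2.09 in Myc+/- and 0.11 in wild type, with an adjusted p of 0.0982 for the difference.

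Other-tissue markers also differed between the genotypes. The sperm and testis list had mean levels of 6.30 to 6.34 in 24-month wild type and 6.03 to 6.13 in 5-month wild type adipose. Of its 40 members, the dim ones included, 37 had the higher signed change in Myc+/-. Slc34a1 and Kap differed by 1.89 and 2.00 in Myc+/- and by 0.16 and 0.31 in wild type (adjusted p of the difference 0.0695 and 0.0982). Of all 15 kidney genes, 8 had the higher signed change in Myc+/-. The hepatocyte list had mean levels of 8.09 to 8.16 in 24-month wild type and 7.24 to 7.33 in 5-month wild type adipose. The Myc+/- pools did not show this span, and 18 of its 19 tested members had the lower signed change in Myc+/-. The part of these levels in the differences between genotypes was not tested.

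**Figure D5:**
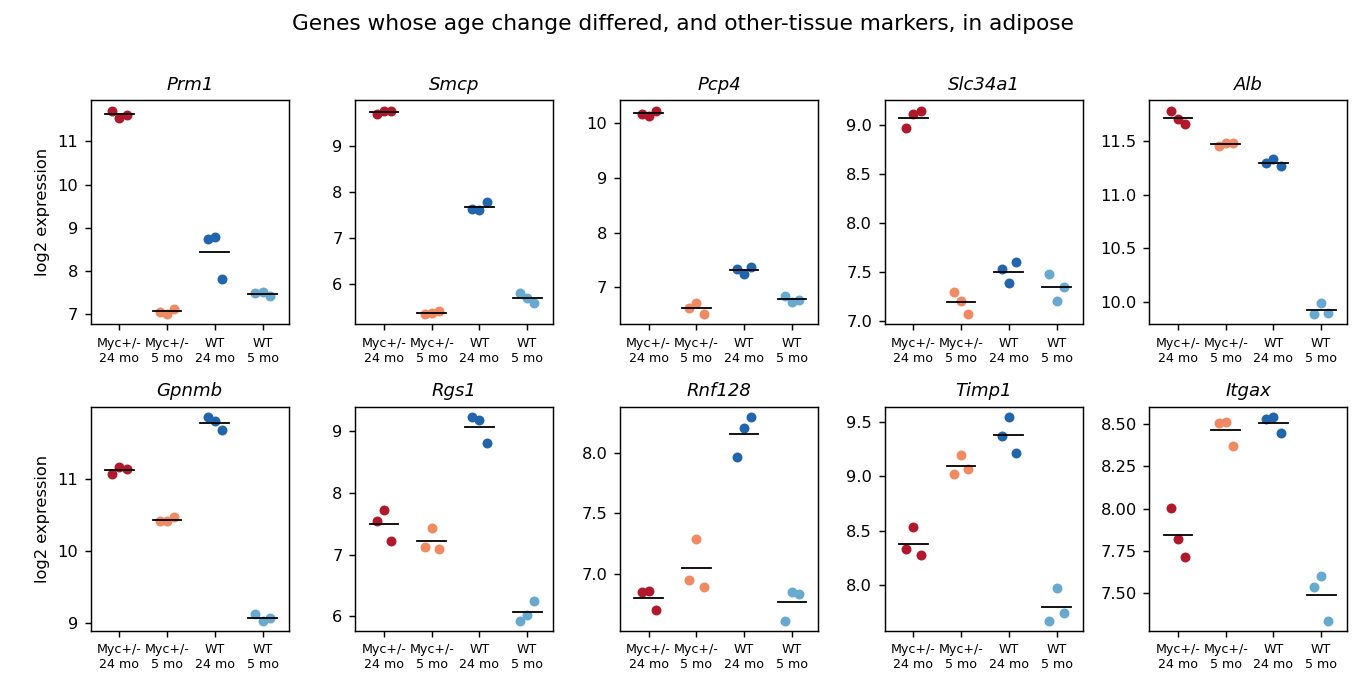
Log2 expression (y axis, own scale per panel) of 10 genes on each adipose array, with points for arrays and a bar for the pool mean, for Myc+/- at 24 and 5 months and wild type at 24 and 5 months. Prm1, Smcp, Pcp4 and Slc34a1 are highest in 24-month Myc+/- adipose, and Gpnmb, Rgs1, Rnf128 and Timp1 in 24-month wild type adipose.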

How the data were processed

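Log2 expression values of 35556 probe sets on 36 arrays were used as deposited; the authors made them with Affymetrix Expression Console and RMA, per the submitters' processing notes, without versions. The labels name both a 3' IVT and a whole-transcript labelling kit, and 2 homogenization methods, not assigned to samples. Of the probe sets, 21789 carried 1 gene symbol in the annotation table, and a gene was represented by its brightest one. Arrays of 1 pool are technical and were averaged. limma (version 3.58.1, R 4.3.3) was fitted to the 12 pool means with tissue, age within tissue, genotype within tissue and an age by genotype term in adipose (10 coefficients, 2 residual and a median of 3.91 prior degrees of freedom; eBayes, trend on mean level). Benjamini-Hochberg adjustment ran over the 13073 probe sets above the 40th percentile of the adipose means, with a threshold of 0.05. A limma fit to the single arrays compared the RNA mixtures only. The age difference was the 24-month minus the 5-month mean, and ± gives the SE of the fit.

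The technical replicate numbers did not pair the samples: deviations of same-numbered arrays of the 2 Myc+/- adipose pools correlated at -0.089, 0.08 and -0.021. Named genes were the 15 largest differences per direction past the test (predicted genes and receptor segments left out), up to 5 members per list or more where roles ordered the account, the 8 per direction whose 2-fold change differed most from wild type, and markers; Gm5150, Rgs1, Rnf128, Itgax and Timp1 were named after their values were seen. The members and the 54 gene lists (1361 entries, 1229 matched to the array) were chosen with earlier results of these data known. Alternatives changed the filter, the scaling, the source of the error, the model, the fold and the arrays used. The fit was tested on simulated data. The number of pools limits the precision; further arrays of a pool would lower array-to-array error alone.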

Additional observations from a re-analysis of the deposited data

Results flagged for a closer look

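The age difference of 8 genes in adipose differed between Myc+/- and wild type mice past the test of that difference (limma, adjusted p under 0.05, error from liver and muscle). None of the 8 calls held with the error from muscle alone, where 0 genes passed and 849 had an unadjusted p under 0.05. The values give the Myc+/- change minus the wild type change on the log2 scale. Among sperm genes, Prm1 stood at 3.60 (adjusted p = 0.0101), Smcp at 2.39 and Prm2 at 2.31. The filter kept 9 of 40 sperm and testis genes and, acting on the mean adipose level, favoured those high in the 24-month Myc+/- pool. Pcp4, a calmodulin-binding protein, stood at 3.03. Rgs1, a regulator of chemokine receptor signalling, stood at -2.72, the predicted gene Gm5150 at -2.15, the macrophage gene Gpnmb at -2.02 and the ubiquitin ligase gene Rnf128 at -1.62.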

How the results depend on the processing

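The count of genes that rose (373) or fell (252) depended on where the error came from: it was 628 and 482 with the error from liver alone, 240 and 145 with muscle alone, and 1392 and 1729 in an additive fit, which averages the age difference over both genotypes and so adds pools. With no filter on dim probe sets 575 rose, and above the 60th percentile 231 rose, since other numbers of genes were tested. Leaving out each Myc+/- adipose array in turn gave 379 to 434 rises and 263 to 300 falls. The 2-fold counts (144 higher and 37 lower) were 477 and 256 at 1.5-fold and 49 and 6 at 3-fold. With no filter 245 were higher, above the 60th percentile 85 were higher and 21 lower, and without single arrays 141 to 156 were higher and 38 to 43 lower. The difference in age change between the genotypes passed for 20 and 66 genes with the error from liver alone, 0 and 0 with muscle alone (limma, with 849 genes at an unadjusted p under 0.05) and 40 and 22 with no filter, against 4 and 4, and for 4 and 4 without any single array. In these counts the first number is the higher direction.

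In the array-level fit, which compares the RNA mixtures only, 1991 genes were higher and 2454 lower. The technical replicate number as a block (replicate block) gave 2020 and 2504. Leaving out single arrays gave 1676 to 1908 higher and 1976 to 2288 lower. Of 2120 values of named genes under alternatives (scaling, summary of arrays, single arrays left out), 0 changed sign, 31 values of 22 genes lost the call and 34 values of 14 genes gained it. Of 486 list medians, 0 changed sign and 34 moved beyond the array spread. Each age of Myc+/- adipose was 1 pool, so the spread between mice was not measured, and signal near background limits dim genes.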

Other observations

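Cnn1, a contractile protein of smooth muscle, had 8.85, 8.50 and 8.67 (log2) in 24-month Myc+/- adipose and 7.59, 7.58 and 7.72 in 5-month Myc+/- adipose, a rise of 1.04 ± 0.15. In wild type adipose Cnn1 averaged 7.49 at 24 months and 7.64 at 5 months, and the difference in change did not pass (adjusted p = 0.295). Gpx3, a secreted antioxidant enzyme, rose by 0.78 ± 0.14 in Myc+/- adipose, and differed by 0.18 in wild type adipose; the difference in change of 0.61 ± 0.19 did not pass (adjusted p = 0.755). Ifit3, an interferon-induced gene, rose by 1.02 ± 0.09 in Myc+/- adipose and differed by 0.23 in wild type adipose, with an adjusted p of 0.264 for the difference in change.

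Of the 13767 probe sets without exactly 1 gene symbol and without a filter, 146 were at least 2-fold higher in 24-month than in 5-month Myc+/- adipose with arrays apart, and 18 were at least 2-fold lower. They are unnamed here.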
